A study of Mus musculus with 12 samples.

Results

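The insulin-like growth factor (IGF) axis was followed in the newborn mouse uterus and vagina through 10 genes: the ligands Igf1 and Igf2, the receptors Igf1r and Igf2r, and the binding proteins Igfbp2 to Igfbp7. All array probes whose platform symbol was 1 of these names were taken, which gave 24 probes, and 19 of them passed the filter on dim probes. All 10 genes kept at least 1 probe, out of 11203 genes tested. RNA was hybridised to 1-colour Illumina mouse bead arrays, 12 in all, 4 for each of 3 groups, and each array held RNA pooled from 3 female mice of postnatal day 3. The cHet uterus and the cHet vagina came from animals of genotype Trp63 flox/wt ; Pax2-cre, and the cKO vagina from animals given as Trp63 flox/floxt ; Pax2-cre. Trp63 encodes p63, a transcription factor of stratified epithelia, and Pax2-cre deletes a floxed segment in cells where the Pax2 promoter is active. All groups, the controls included, thus carried Pax2-cre and at least 1 floxed Trp63 copy, and the strain background was a mixture of C57BL/6, S129/5 and CD-1. The comparison of cKO with cHet vagina asks what the loss of Trp63 changes in the developing vagina, and the cHet uterus gives the neighbouring organ of the same duct.

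IGF1 and IGF2 are secreted growth factors that act mainly through the tyrosine kinase receptor encoded by Igf1r, which drives growth and cell survival. The product of Igf2r, also the mannose 6-phosphate receptor, takes IGF2 up for breakdown, and binding proteins hold both ligands outside the cell and limit or prolong their action. Igf2 is an imprinted gene of fetal growth, while Igf1 in the mature uterus is a ligand made by stroma under oestrogen.

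The promoters of the 6 genes whose level differed between uterus and vagina are shown first, because these are the genes on which the results turn. RefSeq start sites on GRCm38 were found for 10 of 10 genes, in 14 windows of 150 bases before a start. Igf2 has 4 starts in that table, of which the last in the direction of transcription is shown, and the probe does not tell which start was used. Capitals mark TATAAA (the TATA box) and GGGCGG (the GC box), each on either strand, and GC boxes may overlap each other. The windows, printed 5′ to 3′ in the direction of transcription, are chr10:87860961-87861110 (+ strand) for Igf1, chr7:142657497-142657646 (- strand) for Igf2 and chr17:12769707-12769856 (- strand) for Igf2r. Those of the binding proteins are chr1:72824330-72824479 (+ strand, the first of 2 starts) for Igfbp2, chr1:72874866-72875015 (- strand) for Igfbp5 and chr15:102144036-102144185 (+ strand) for Igfbp6. All lie directly upstream of the annotated transcript.
Igf1: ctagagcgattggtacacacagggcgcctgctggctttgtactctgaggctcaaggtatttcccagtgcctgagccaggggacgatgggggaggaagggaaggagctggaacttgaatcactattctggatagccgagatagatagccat
Igf2: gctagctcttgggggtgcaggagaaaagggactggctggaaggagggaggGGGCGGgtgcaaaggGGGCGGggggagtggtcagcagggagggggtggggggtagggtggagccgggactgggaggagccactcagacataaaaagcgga
Igf2r: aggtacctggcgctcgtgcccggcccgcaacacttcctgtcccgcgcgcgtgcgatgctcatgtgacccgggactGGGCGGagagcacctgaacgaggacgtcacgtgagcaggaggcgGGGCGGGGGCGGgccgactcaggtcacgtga
Igfbp2: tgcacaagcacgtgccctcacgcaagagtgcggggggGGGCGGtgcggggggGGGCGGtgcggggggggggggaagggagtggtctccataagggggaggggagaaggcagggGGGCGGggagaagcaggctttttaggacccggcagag
Igfbp5: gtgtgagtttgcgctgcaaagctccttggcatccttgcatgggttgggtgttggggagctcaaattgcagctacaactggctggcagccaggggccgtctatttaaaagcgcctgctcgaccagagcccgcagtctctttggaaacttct
Igfbp6: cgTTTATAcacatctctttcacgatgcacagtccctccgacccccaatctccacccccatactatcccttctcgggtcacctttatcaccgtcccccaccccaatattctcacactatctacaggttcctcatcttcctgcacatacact
GC boxes stood in 3 of the windows printed, with 2 in Igf2, 3 in Igf2r and 3 in Igfbp2, and in 6 of all 14 windows of the family. Over the 32851 windows of the RefSeq table, 28.6% held GGGCGG. The Igf1 and Igfbp5 windows held neither motif, and the Igfbp6 window held 1 TATAAA on the opposite strand, starting 148 bases before the start site; TATAAA occurred in 2 of 14 windows and in 7.57% of all. CCAAT on either strand was found in the Igf1 and Igfbp6 windows alone among the 14, against 24.5% of all. The oestrogen receptor half-site GGTCA was in 5 of 14 windows, among them the printed windows of Igf2, Igf2r and Igfbp6, against 23.1% of all. The p53 family half-site matched in 0 of 14 windows and in 4.01% of all, which says only that these letters are not in those bases. None of these motifs was in all 5 printed windows of the genes that were lower in the vagina.

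Arrays of 1 group correlated at 0.972 to 0.991 across genes, and principal component 1 (48.2% of the variance) set the uterus apart from both vaginal groups. Component 2 (14.8%) set replicates 1 and 2 apart from replicates 3 and 4, so values within these sets are given where they alter a call of a member. No label says what a replicate number shares. The arrays had median intensities of 72.3 to 93.9, with 39.2% to 45.8% of their probes above background. The Trp63 probe that passed the filter, 1 of 2, read 9.36 to 9.75 (log2) in cHet vagina, 9.07 to 9.91 in cKO vagina and 4.53 to 4.75 in cHet uterus. The sources used here do not place the floxed segment, so a probe that may lie outside it is no check of the deletion. The basal epithelial markers Col17a1 and Krt17 were lower in cKO than in cHet vagina, by -3.09 and -1.80 on the log2 scale (adjusted p = 0.000201 and 0.00150, limma with Benjamini-Hochberg adjustment). The pool cKO vagina replicate 3 stood apart by its red blood cell markers, at a mean log2 deviation of 2.01 against -0.61 to -0.23 in the other cKO pools, and by its skeletal muscle markers, at 2.18 against -0.73 to 0.87. Results that rest on it are given with and without it.

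The axis differed between the organs and not detectably between the genotypes. Levels are log2 intensities after background correction, with an offset of 16 and quantile normalization, and they are compared between groups for 1 probe at a time, not between genes. A gene was called where its adjusted p in limma, fitted over all 11203 genes with Benjamini-Hochberg adjustment, was under 0.05. In cHet vagina against cHet uterus 1 of 10 members was called higher (Igf1) and 5 lower (Igf2, Igf2r, Igfbp2, Igfbp5 and Igfbp6), while 9.41% of all genes were called higher and 9.12% lower. In cKO vagina against cHet uterus Igf1 was called higher and those 5 genes were called lower, beside 8.87% and 9.4% of all genes. Both contrasts share the cHet uterus pools, so the second is not independent of the first. In cKO against cHet vagina 0 of 10 members were called, where 0.384% of all genes were called, so a count of 0 does not set the members apart from other genes. In bulk tissue, fewer cells of a type and less RNA per cell cannot be told apart.

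**Figure D1:**
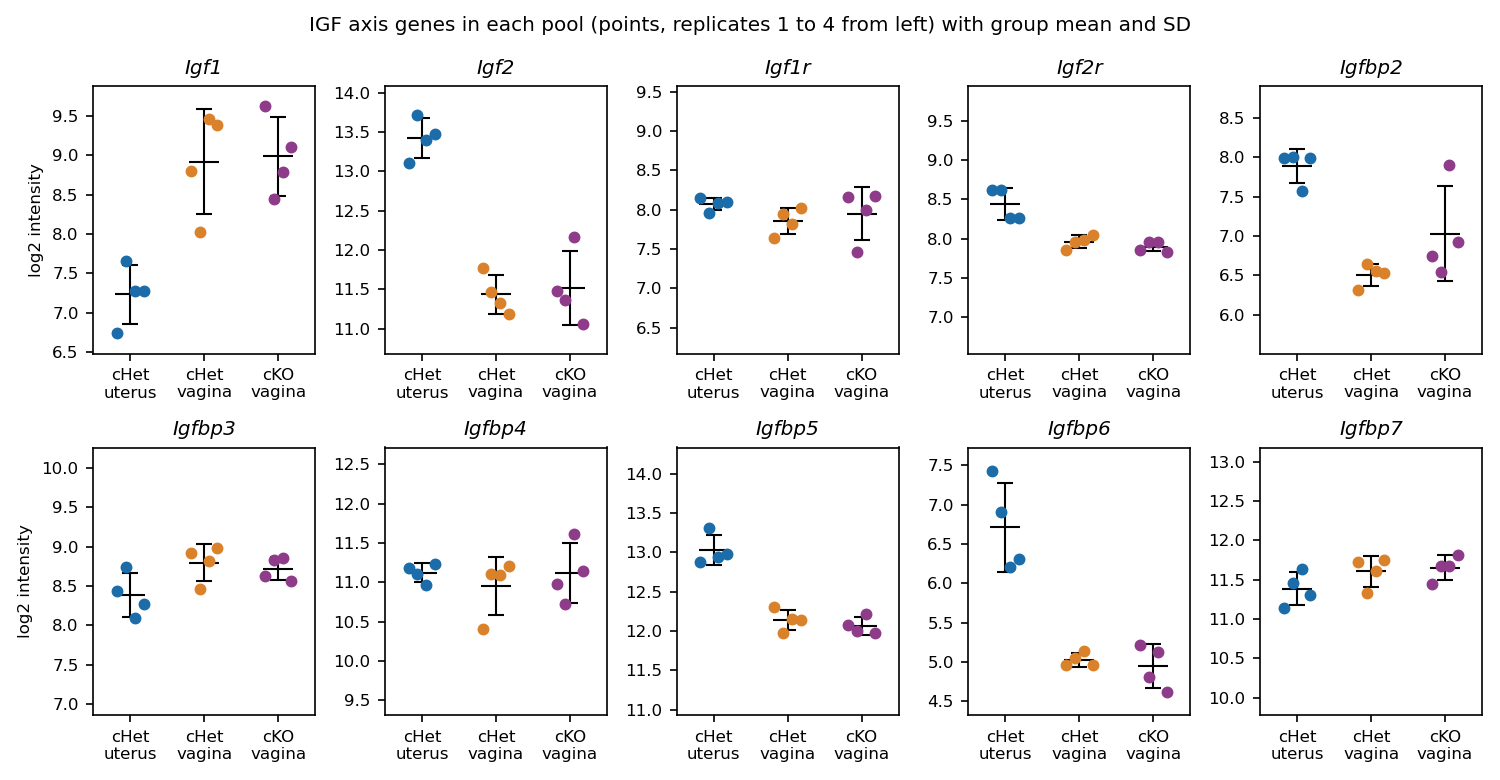
Log2 intensity (vertical axes, each spanning the same range) of the probe that stands for each of the 10 IGF axis genes in every pool of the 3 groups. Points are pools, long bars the mean and short bars 1 SD on either side (n = 4); Igf1 lies higher in all 8 vaginal pools than in the 4 uterine pools, and Igf2, Igf2r, Igfbp5 and Igfbp6 lie lower.

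Igf1, the ligand of the receptor encoded by Igf1r, was higher in the vagina. Its level in cHet uterus was 6.74, 7.65, 7.27 and 7.27 in replicates 1 to 4. In cHet vagina it was 8.80, 8.02, 9.46 and 9.39, and in cKO vagina 9.62, 8.44, 8.79 and 9.10. All vaginal pools lay above all uterine pools, and cHet vagina replicate 2 was the lowest of the vaginal pools. The cHet vagina exceeded the cHet uterus 3.21-fold (log2 1.68, SE 0.30, limma adjusted p = 0.000673), and the cKO vagina exceeded it 3.37-fold (log2 1.75, SE 0.30, adjusted p = 0.000506). Taken alone, replicates 1 and 2 gave an organ difference of 1.21 (adjusted p = 0.0484), and 2.15 was found in replicates 3 and 4 (adjusted p = 1.74e-05). Whether these values differ was not tested. A second Igf1 probe gave 1.36 (SE 0.26, adjusted p = 0.00148 over all probes). Between the vaginas Igf1 differed by 0.071 (95% confidence interval -0.57 to 0.71, adjusted p = 0.988). The value was 0.62 in replicates 1 and 2, against -0.48 in replicates 3 and 4. The 2 sets thus had opposite signs, neither past the threshold (adjusted p = 0.619 and 0.423).

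Igf2, the imprinted fetal ligand, ran the other way. The cHet uterus stood at 13.11, 13.72, 13.40 and 13.47. The cHet vagina stood at 11.77, 11.47, 11.32 and 11.19, and the cKO vagina at 11.48, 11.36, 12.17 and 11.06. Every uterine pool exceeded every vaginal pool, and the highest vaginal value was that of cKO replicate 3. Igf2 was 3.96-fold lower in cHet vagina than in cHet uterus (log2 -1.99, SE 0.21, adjusted p = 3.74e-06) and 3.75-fold lower in cKO vagina (log2 -1.91, adjusted p = 6.66e-06). Between the vaginas the difference was 0.082 (95% confidence interval -0.36 to 0.53, adjusted p = 0.974), and -0.14 without cKO replicate 3. A single Igf2 probe was on the array, so no second probe checks these values.

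Of the receptors, Igf2r, which clears IGF2, was lower in the vagina and Igf1r, the signalling receptor, was not called. Igf2r stood at 8.62, 8.62, 8.26 and 8.26 in cHet uterus, with replicates 1 and 2 above replicates 3 and 4. It stood at 7.86, 7.96, 7.98 and 8.05 in cHet vagina and at 7.86, 7.95, 7.95 and 7.83 in cKO vagina. The uterine pools did not overlap either vaginal group. The difference was -0.48 for cHet vagina (1.39-fold, SE 0.13, adjusted p = 0.0146) and -0.55 for cKO vagina (1.46-fold, SE 0.13, adjusted p = 0.00615). Within replicates 1 and 2 the cHet vagina difference was -0.71 (adjusted p = 0.0441), and within replicates 3 and 4 it was -0.25 and no longer called (adjusted p = 0.281). The call was also lost without quantile normalization, at -0.42 (adjusted p = 0.0862); the 28 alternatives tried gave it an adjusted p of 0.00402 to 0.281. For cKO vagina the call was lost in the same places, at -0.37 (adjusted p = 0.105) in replicates 3 and 4 and -0.35 (adjusted p = 0.135) without quantile normalization. The second Igf2r probe gave -0.47 for cHet vagina, which was not called (adjusted p = 0.119), and -0.82 for cKO vagina, which was (adjusted p = 0.00600).

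Igf1r read 8.15, 7.96, 8.09 and 8.10 in cHet uterus, 7.64, 7.95, 7.82 and 8.02 in cHet vagina and 8.16, 7.46, 8.0 and 8.18 in cKO vagina. The 3 groups overlapped. Its difference was -0.21 for cHet vagina against uterus (95% confidence interval -0.56 to 0.13, adjusted p = 0.430) and 0.091 between the vaginas (-0.25 to 0.43, adjusted p = 0.963). Of its 4 probes, 1 was above background on 0 arrays and another on 4 of 12, and none of the 3 kept probes was called in any contrast.

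Among the binding proteins, Igfbp2, Igfbp5 and Igfbp6 were lower in the vagina, and Igfbp3, Igfbp4 and Igfbp7 were not called. Igfbp6, which prefers IGF2 over IGF1, read 7.43, 6.90, 6.21 and 6.31 in cHet uterus. It read 4.96, 5.05, 5.14 and 4.96 in cHet vagina, and 5.22, 4.81, 5.13 and 4.62 in cKO vagina. No vaginal pool reached the lowest uterine pool, and in the uterus replicates 1 and 2 lay above replicates 3 and 4. The fall was 3.22-fold for cHet vagina (log2 -1.69, SE 0.22, adjusted p = 3.85e-05) and 3.40-fold for cKO vagina (log2 -1.77, SE 0.22, adjusted p = 2.65e-05). Its vaginal signal was near background: the deposited intensity was 83.8 to 102.4 there, while the background modes of the arrays lay at 69.1 to 90.7, although the probe passed the background level on every array. The size of the fall therefore moved with the offset, from -0.84 with no background correction to -2.34 with an offset of 1, and was called in each case.

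Igfbp5, a binding protein that attaches to the extracellular matrix, read 12.88, 13.31, 12.94 and 12.98 in cHet uterus. It read 12.30, 11.98, 12.15 and 12.14 in cHet vagina and 12.08, 12.00, 12.22 and 11.97 in cKO vagina. The uterus stood clear of both vaginal groups, which overlapped each other. Igfbp5 was 1.85-fold lower in cHet vagina (log2 -0.88, SE 0.13, adjusted p = 0.000141) and 1.94-fold lower in cKO vagina (log2 -0.96, SE 0.13, adjusted p = 7.15e-05). Its 2 other probes gave -0.89 and -1.02 for cHet vagina and -1.20 and -1.44 for cKO vagina, all called.

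For the genotype the Igfbp5 probes gave differences of the same sign and unlike size, and whether the probes differ was not tested. By the brightest, cKO minus cHet vagina was -0.076 (95% confidence interval -0.36 to 0.21), whereas the other probes gave -0.31 and -0.42. Neither difference was called in limma over the 20822 kept probes (adjusted p = 0.748 and 0.658, unadjusted p = 0.0462 and 0.0267). Their 95% confidence intervals were -0.62 to -0.0060 and -0.78 to -0.055. The second probe read 12.40, 11.95, 11.92 and 12.10 in cHet vagina and 11.79, 11.80, 11.81 and 11.72 in cKO vagina. The third read 12.38, 11.91, 11.74 and 11.80 in cHet vagina and 11.51, 11.47, 11.71 and 11.47 in cKO vagina. With either probe no cKO pool reached the lowest cHet vagina pool, a pattern that 2.25% of all kept probes showed. At probe level 0 of the 19 member probes were called between the vaginas, beside 0.331% of all probes. Against the cHet uterus 10 of 19 were called for cHet vagina, 2 higher and 8 lower, beside 14% of all probes. For cKO vagina 11 of 19 were called, 2 higher and 9 lower, beside 13.8% of all.

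**Figure D2:**
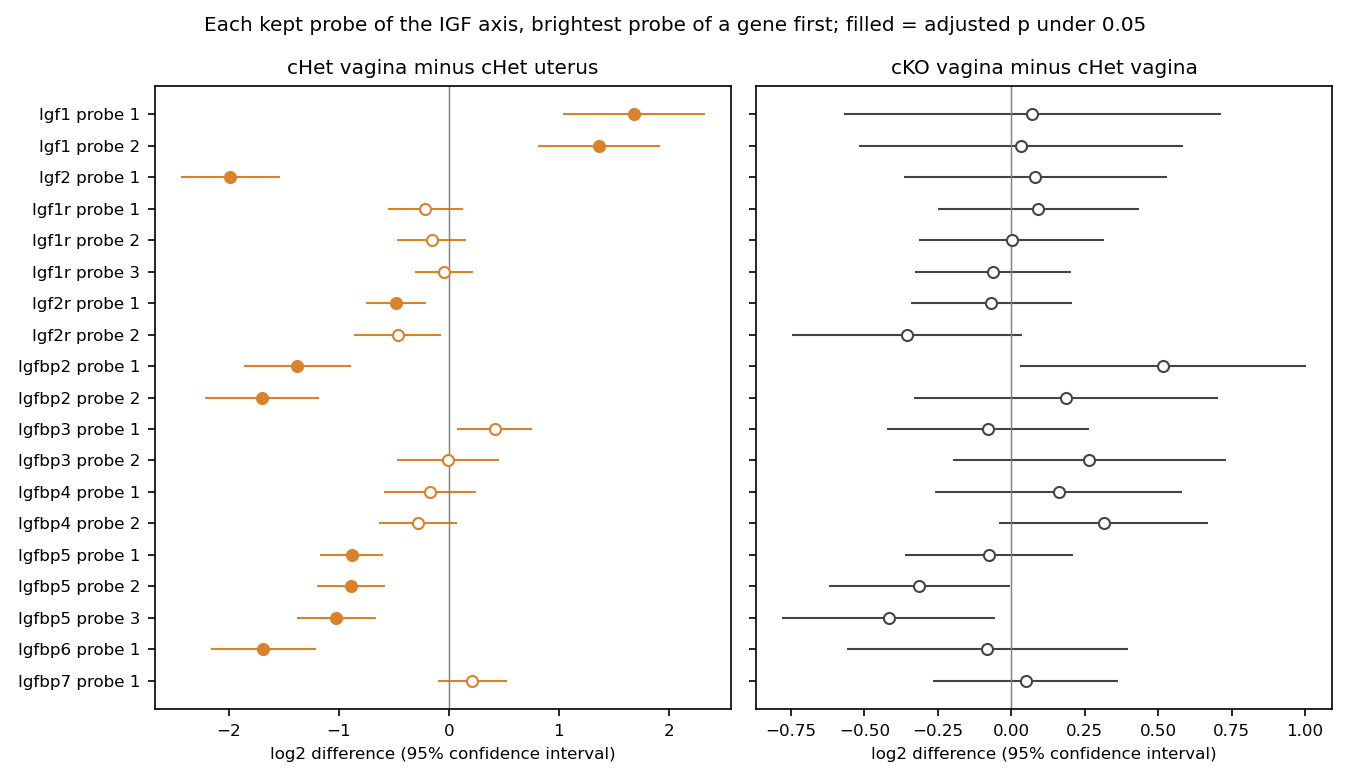
Log2 difference (horizontal axes, with 95% confidence intervals) of each of the 19 kept IGF axis probes for cHet vagina minus cHet uterus on the left and cKO minus cHet vagina on the right; filled points have an adjusted p under 0.05. The probes of Igf1, Igf2r, Igfbp2 and Igfbp5 lie on 1 side of 0 for the organs, those of Igfbp3 do not lie together, and on the right no point is filled.

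Igfbp2, a binding protein abundant in fetal tissues, read 7.99, 8.0, 7.57 and 7.99 in cHet uterus. It read 6.31, 6.64, 6.55 and 6.53 in cHet vagina, and 6.75, 6.54, 7.90 and 6.92 in cKO vagina. The cHet groups did not overlap, but cKO replicate 3 reached the uterine range, while the other cKO pools stayed near the cHet vagina. The cHet vagina was 2.60-fold below the cHet uterus (log2 -1.38, SE 0.23, adjusted p = 0.000323), and the cKO vagina 1.82-fold below it (log2 -0.86, SE 0.23, adjusted p = 0.0133). The latter was -1.35 in replicates 1 and 2 and -0.37 in replicates 3 and 4, where it was not called (adjusted p = 0.425, the highest of its 28 alternatives; the lowest was 9.81e-05), and -1.15 without cKO replicate 3. A second, dimmer probe gave -1.70 for cHet vagina (adjusted p = 0.000112) and -1.51 for cKO vagina, with no overlap of groups in either.

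Between the vaginas Igfbp2 was the 1 member of 10 with an unadjusted p under 0.05 by the probe that stands for each gene. Of all genes 7.07% had one, and so did the dimmer Igfbp5 probes given above. Igfbp2 differed by 0.52 (SE 0.23, 95% confidence interval 0.031 to 1.0), with an adjusted p of 0.660 in limma over all genes. Without cKO replicate 3 the difference was 0.23, and the second probe gave 0.19 with all pools. That pool had the highest Igf2, Igfbp2, Igfbp3, Igfbp4 and Igfbp5 of its group and the high red blood cell and skeletal muscle markers; the part of those cells in these values was not tested. The vaginal groups overlapped in 10 of 10 members, and 4.34% of all genes had groups that did not overlap. Against the cHet uterus the groups did not overlap in 6 members for cHet vagina, beside 21.6% of all genes, and in 5 for cKO vagina, again beside 21.6%; Igfbp2 made the difference.

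Igfbp3, the main carrier of IGFs in blood, read 8.43, 8.74, 8.09 and 8.27 in cHet uterus, 8.92, 8.46, 8.82 and 8.98 in cHet vagina and 8.63, 8.83, 8.86 and 8.56 in cKO vagina. The groups overlapped through cHet uterus replicate 2 and cHet vagina replicate 2. The organ difference was 0.42 (SE 0.16, adjusted p = 0.0925), and it was called when either of those pools was left out, at 0.53 in each case (adjusted p = 0.0303 without the uterine pool and 0.0372 without the vaginal pool). It was also called in replicates 3 and 4 alone, at 0.72 (adjusted p = 0.0128), and not in replicates 1 and 2, at 0.11 (adjusted p = 0.865), the alternatives spanning adjusted p values of 0.0119 to 0.865. The second Igfbp3 probe gave -0.0092, so the probes did not share a direction.

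Igfbp4, an inhibitory binding protein that the protease PAPP-A cleaves to free its ligand, read 11.18, 11.11, 10.97 and 11.24 in cHet uterus, 10.41, 11.11, 11.09 and 11.21 in cHet vagina and 10.98, 10.73, 11.62 and 11.15 in cKO vagina. All groups overlapped, and the differences were -0.17 for cHet vagina against uterus (adjusted p = 0.649), -0.0090 for cKO vagina against uterus (adjusted p = 0.985) and 0.16 between the vaginas (adjusted p = 0.933), the last being -0.0051 without cKO replicate 3. Igfbp7, a low-affinity relative found around blood vessels, read 11.14, 11.46, 11.64 and 11.31 in cHet uterus. Its levels in cHet vagina were 11.73, 11.33, 11.61 and 11.75, and in cKO vagina 11.44, 11.68, 11.67 and 11.82. These groups overlapped too, with differences of 0.21 (adjusted p = 0.384), 0.26 (adjusted p = 0.263) and 0.049 (adjusted p = 0.982) in the same order. Its 4 further probes were above background on 0 arrays and were not tested.

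In the 6 called genes both vaginal groups were called in 1 direction against the same uterine pools, which in itself puts the uterus at one end of the order of levels. The neighbours in that order, the vaginal groups, were not called apart in any of the 6, although the unadjusted interval of Igfbp2 left out 0. The median difference of the 10 members was -0.35 for cHet vagina against uterus, -0.33 for cKO vagina against uterus and 0.060 between the vaginas. The medians over all genes were -0.015, -0.016 and -0.0092. Between the vaginas the members ran from -0.081 to 0.52.

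**Figure D3:**
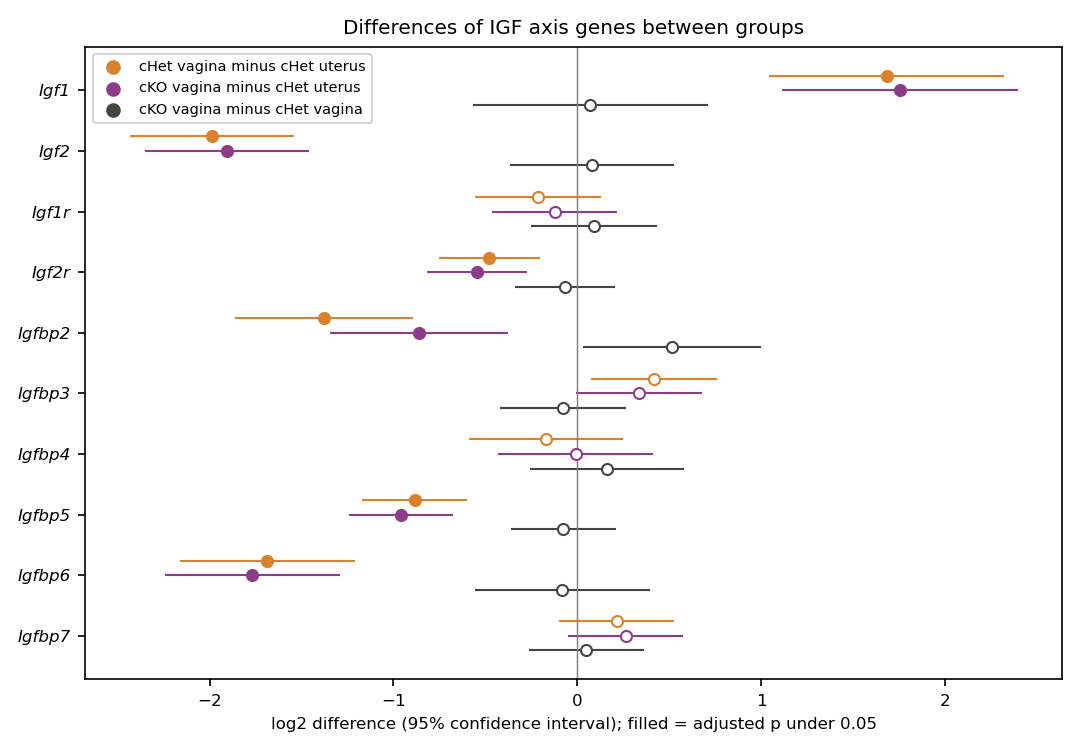
Log2 differences (horizontal axis) with 95% confidence intervals from limma for the 10 IGF axis genes in the 3 contrasts; filled points have an adjusted p under 0.05. Both vaginal groups differ from the cHet uterus alike in sign for the 6 filled genes, and the intervals of cKO minus cHet vagina include 0 for all but Igfbp2.

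Genes that act on or with the axis were read from lists of its regulators and signalling partners. Of 6 tested proteases of binding proteins and stanniocalcins, 0 were called higher and 3 lower in cHet vagina than in cHet uterus, beside 9.12% of all genes called lower, with a list median of -0.57. Stc1, a stanniocalcin, the family that inhibits PAPP-A, read 9.14, 9.09, 8.77 and 8.31 in cHet uterus and 7.69, 7.61, 7.12 and 7.30 in cHet vagina, without overlap (log2 -1.40, SE 0.18, adjusted p = 3.11e-05). Htra1, a secreted serine protease that can cleave binding proteins, was lower by -0.95 (SE 0.25, adjusted p = 0.0125). Its relative Htra3 was lower by -1.47 (SE 0.43, adjusted p = 0.0246), with overlapping groups. Htra3 read 10.07, 9.96, 8.29 and 7.91 in cHet uterus and 8.37, 7.16, 7.51 and 7.33 in cHet vagina. In the uterus replicates 1 and 2 lay above replicates 3 and 4, and whether the call holds within each set is not given here. Stc1 and Htra3 were also called in cKO vagina against uterus, at -1.53 (adjusted p = 1.38e-05) and -1.48 (adjusted p = 0.0236), and Htra1 there had -0.54 (adjusted p = 0.161).

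Both tested RNA-binding proteins of Igf2 mRNA were higher in the vagina, as were 9.41% of all genes, while Igf2 was lower. Igf2bp3 read 7.50, 7.64, 7.09 and 7.41 in cHet uterus, 8.41, 9.06, 8.50 and 8.35 in cHet vagina and 8.54, 9.18, 8.68 and 8.71 in cKO vagina. All vaginal pools lay above all uterine pools, by 1.17 for cHet (SE 0.18, adjusted p = 0.000201) and 1.37 for cKO (SE 0.18, adjusted p = 4.97e-05). Igf2bp1 was higher by 0.58 (SE 0.15, adjusted p = 0.0100) and 0.64 (adjusted p = 0.00539).

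Of 19 tested genes of receptor signalling, from insulin receptor substrates through phosphoinositide 3-kinase subunits to Foxo factors, 1 was called higher and 2 lower in cHet vagina against uterus, with a median of -0.11. That is near or below the background, since 18.5% of all genes were called in either direction. No Akt gene was among those tested. The higher gene was Pik3cb, a catalytic subunit of phosphoinositide 3-kinase, at 0.75 (SE 0.18, adjusted p = 0.00660). The lower genes were the docking protein gene Irs2, at -0.71 (SE 0.24, adjusted p = 0.0474), and the adaptor gene Shc1, at -0.62 (SE 0.15, adjusted p = 0.00727). In cKO vagina against uterus 0 were higher and 2 lower, beside 8.87% and 9.4% of all genes. The latter were Shc1 at -0.64 (adjusted p = 0.00615) and the transcription factor gene Foxo1 at -0.62 (adjusted p = 0.0266). Of the rest of the system, Insr, the insulin receptor gene, was the 1 tested of 7 listed and differed by -0.013 between the cHet organs, while Igfbp1 and Igfals did not pass the filter.

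Of 10 tested imprinted growth genes other than the members, 0 were higher and 2 lower in cHet vagina, where 18.5% of all genes were called, so this share is near the background. These were Cdkn1c, an inhibitor of the cell cycle, at -0.86 (SE 0.15, adjusted p = 0.000477), and Mest, a gene of mesoderm, at -0.84 (SE 0.18, adjusted p = 0.00296). In cKO vagina 0 were higher and 3 lower against the uterus, beside 8.87% and 9.4% of all genes. The lower genes were Mest at -0.87 (adjusted p = 0.00251), Peg3 at -0.86 (adjusted p = 0.0149) and Nnat at -1.24 (adjusted p = 0.00527). Of 6 tested relatives that share the binding-protein domain, 1 was higher and 3 lower in either vaginal group, beside 9.12% of all genes called lower for cHet and 9.4% for cKO vagina. Ccn2, the connective tissue growth factor gene, read 9.78, 9.76, 9.61 and 10.31 in cHet uterus and 8.62, 8.38, 8.02 and 8.09 in cHet vagina, without overlap (log2 -1.59, SE 0.18, adjusted p = 5.74e-06). Ccn4 and the endothelial gene Esm1 were lower by -0.96 and -0.78. Ccn3 was called higher, but its uterine signal was above background in 0 of 4 pools. Its fold was therefore taken from the lowest signal above background on each uterine array. By group means this gave 1.68-fold for cHet vagina and 2.36-fold for cKO vagina, values that carry no measure of error. In cHet vagina Ccn3 read 4.27, 4.86, 5.95 and 5.92, above background in 3 of 4 pools, and the pools overlapped those of the uterus. Between the vaginas 0 genes were called in any of these lists, where 0.384% of all genes were called, so a count of 0 does not set the lists apart.

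**Figure D4:**
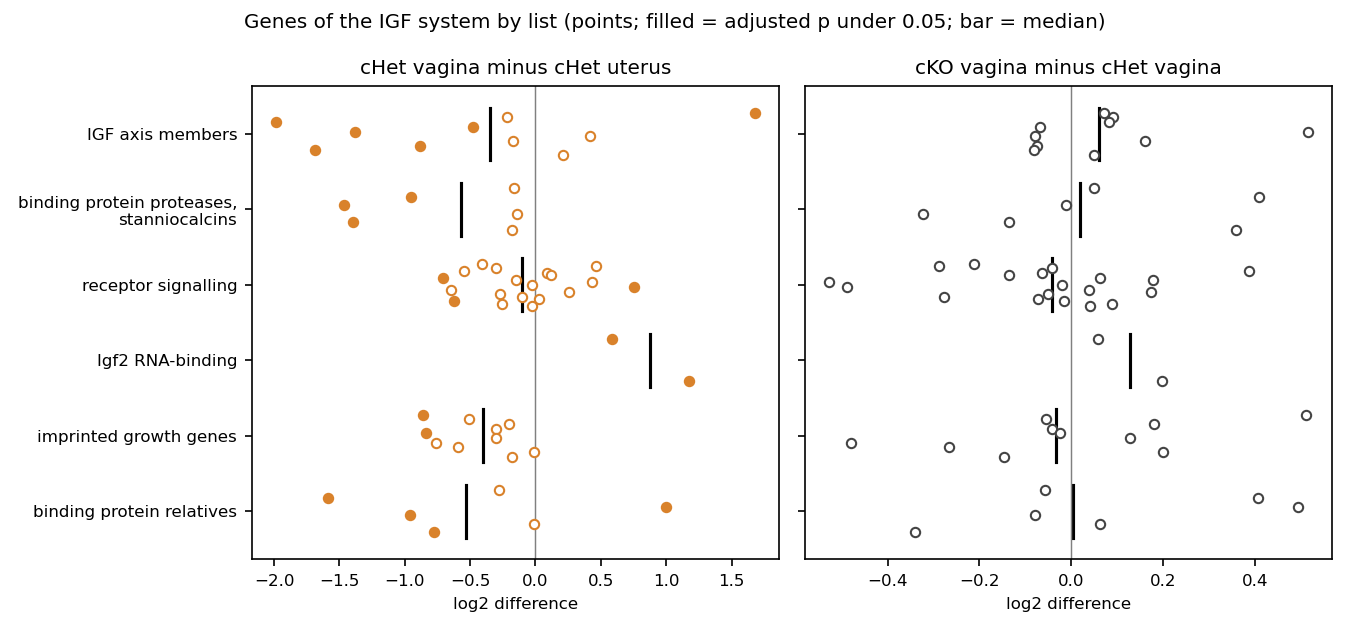
Log2 differences (horizontal axes) of the tested genes of each IGF system list for cHet vagina minus cHet uterus on the left and cKO minus cHet vagina on the right. Each point is a gene, filled where its adjusted p is under 0.05, and the bar is the list median; in the left panel the 2 RNA-binding genes lie right of 0 and the called proteases left of it, and in the right panel, which has a narrower scale, no point is filled.

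Markers of several cell types moved with the organ, and the part of cell composition in the values of the axis was not tested. Over all genes 9.41% were called higher and 9.12% lower in cHet vagina against cHet uterus. The mesothelium markers Upk3b and Msln, 2 of 2 tested, were lower in cHet vagina by -3.71 and -1.93; their summed background-corrected intensity was 662.4 to 1165 in cHet uterus, 30.1 to 96.4 in cHet vagina and 25.2 to 42.5 in cKO vagina. Msln was above background in 2 of 4 pools of each vaginal group, which limits how well the size of its fall is known. Upk3b was above background in 4 of 4 pools of each vaginal group, and Lrrn4 did not pass the filter. Of 5 endothelial markers 3 were lower, with sums of 1158 to 1354 in cHet uterus, 525.2 to 759.7 in cHet vagina and 520.3 to 685.0 in cKO vagina. Of 9 stromal markers 1 was higher (Dcn) and 2 were lower (Pdgfrb and Thy1), with sums of 13000.2 to 15706 and 15394 to 20894 in the cHet organs. Of 6 smooth muscle markers, Actg2 and Myh11 were higher by 3.63 and 2.09 and Des lower by -1.36. Epithelial markers were higher for 6 of 7, with sums of 3164 to 4115 in cHet uterus against 7227 to 11263 in cHet vagina, and basal epithelial markers for 6 of 6, with sums of 980.4 to 1223 against 6945 to 13457. Red blood cell markers were lower for 2 of 4, with sums of 24794 to 34603 against 13026 to 17668. Of 4 leukocyte markers Cd14 was higher by 2.40 (adjusted p = 5.11e-07), and Csf1r and Lyz2 were lower by -0.68 and -0.86. The sums of the leukocyte markers were 341.2 to 605.6 in cHet uterus, 688.1 to 846.3 in cHet vagina and 724.9 to 1137 in cKO vagina. Cd14 had a mean of 9.18 in cHet vagina, against 5.82 to 6.65 for the other markers, so the vaginal sums mostly follow Cd14. Of 2 adipocyte markers Pparg was higher, by 0.75, and 0 of 5 skeletal muscle markers were called. The Pparg mean in cHet uterus was 4.18, near the value that the offset gives to a dark probe.

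The position genes that were called followed the labelled organs. Of the uterus list Hoxa11 and Hoxd10 were lower in cHet vagina, by -2.53 and -3.49, while Wnt7a was not called and Hoxa10 did not pass the filter. All 4 genes of the vagina list were higher, among them Isl1 by 6.01 and Hoxa13 by 0.84. Their summed background-corrected intensity was only 20.4 to 27.9 in cHet uterus, against 1764 to 2570 in cHet vagina. Such a low uterine signal limits how well the size of these differences is known. Between the vaginas 2 of 6 basal epithelial markers were lower and 0 of the other marker lists held a called gene. The basal markers that were lower are Krt17 and Col17a1, given above.

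**Figure D5:**
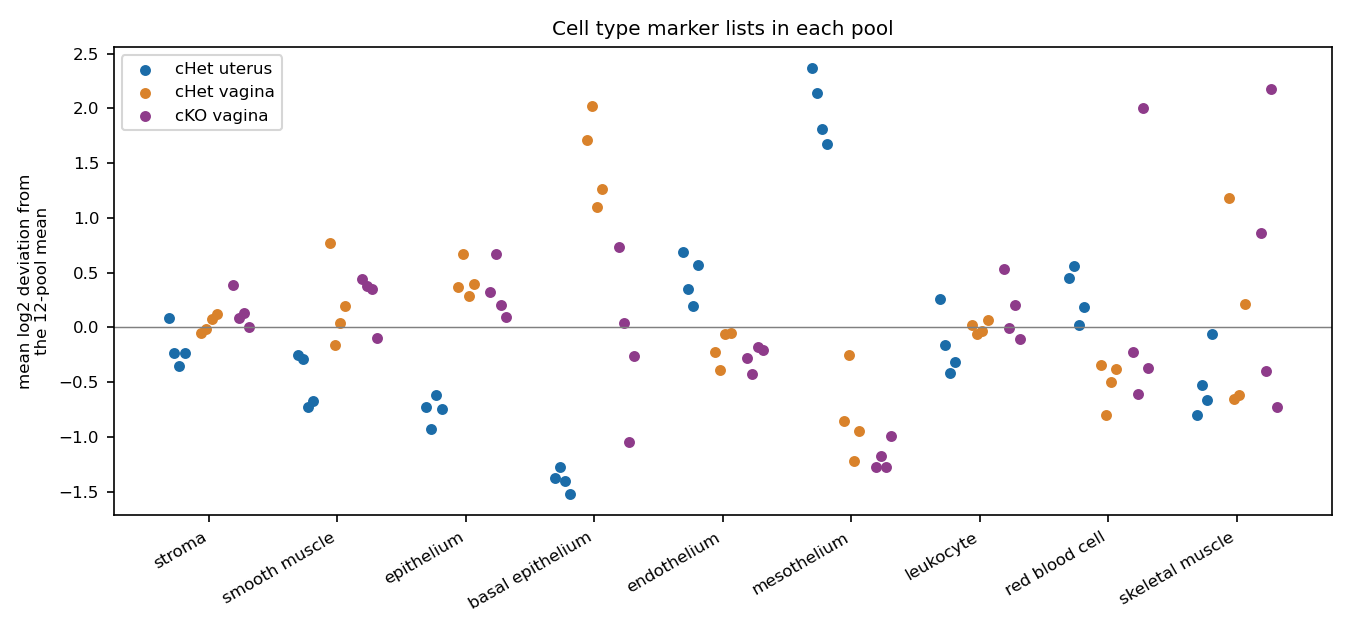
Mean log2 deviation of each cell type marker list from its mean over the 12 pools (vertical axis), for every pool (points, coloured by group). Mesothelium and endothelium are highest in the cHet uterus pools, basal epithelium is highest in the cHet vagina pools, and 1 cKO vagina pool, replicate 3, stands at 2.01 for red blood cells and 2.18 for skeletal muscle.

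The genes most like each member over the 12 arrays were found by Pearson correlation among the 11193 tested genes that were no members. The points share arrays and fall into uterus and vagina, so for the called members these values mostly describe the organ difference. Igf1 was matched most closely by Elavl2 (r = 0.96), whose mean was 5.70 in cHet uterus and 7.41 in cHet vagina, and by Gdpd1 (r = 0.96). Igf2 was matched by Prickle1 (r = 0.98), at 9.35 and 7.99, and by the homeobox gene Hoxa5 (r = 0.98), at 6.52 and 4.31. Igfbp5 was followed by Neurl1a (r = 0.99), at 8.59 and 6.88, and by the calcium pump gene Atp2a3 (r = 0.99), at 8.84 and 6.25. The closest to Igfbp2 was Slc6a13 (r = 0.95), the closest to Igf2r was Ak5 (r = 0.98), and the closest to Igfbp6 was Gata5 (r = 0.99), whose means of 4.89 and 4.14 lay near the value that the offset gives to a dark probe. The cHet vagina means of Hoxa5 (4.31), Ak5 (4.25) and Slc6a13 (4.22) lay near that value too. With group means removed, the gene nearest to Igf2 was Eng (r = 0.94), an endothelial co-receptor gene. Nearest to Igf1 was Tmem219 (r = 0.92), and nearest to Igf2r was the leukocyte marker Csf1r (r = 0.93). Each is the highest r among 11193 genes over 12 arrays. The nearest gene of every member lay between 0.90 (Psme2 for Igf1r) and 0.94 (Eng for Igf2). These values therefore do not tie a member to a cell type. Deviations from group means also keep the difference between the replicate sets given above, whose part in these values was not tested.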

How the data were processed

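Total RNA of 12 pools was labelled with biotin for bead arrays, per the labels' protocols, and pools were grouped by their titles. The table deposited by the authors gave a linear intensity for each of 45281 probes on each array. It was already scaled, since the array means lay at 248.3 to 252.2, by a method that the sources used here do not give. A further 24 columns of per-sample values matched no sample label and were not used.

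Background was estimated on each array as the mode of its intensities, with its SD from the values below, and corrected with normexp (limma 3.58.1, R 4.3.3), adding an offset of 16. Quantile normalization and log2 followed. Kept were the 20822 probes that exceeded the 99% limit of background values on at least 4 of 12 arrays. Of all probes 34885 had 1 symbol, 18 several and 10378 none; 78 of the first were not matched to the reference genes. The brightest kept probe stood for its gene. Groups were fitted over all arrays with lmFit and eBayes (15.8 degrees of freedom), two-sided, with Benjamini-Hochberg adjustment over all genes or all probes. The number of arrays limits the precision, and p-values measure the spread between pools. The fit was tested on simulated data.

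Members, lists and tests were chosen with earlier results of these data known. Named were all members, called genes of each list (the 4 with the largest change in longer lists), and the genes most like each member. Same-numbered cHet vagina and cHet uterus pools deviated together at r = 0.142, 0.117, 0.376 and 0.430 for replicates 1 to 4, all above 0.1. Same-numbered pools lie in the same replicate set, and deviations from group means keep the difference between the sets. These values therefore cannot tell pairing from the sets, and whether the numbers pair the pools is not known. No label says what a number shares, and cHet vagina replicates 1 and 2 each correlated better with the other's number. In the other contrasts 1 pair each fell below 0.1. The fit had no pairs, and a replicate block was an alternative, as were the background correction, offset, normalization, filter, choice of probe, weights, sets of replicates and leaving out each pool.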

Additional observations from a re-analysis of the deposited data

Results flagged for a closer look

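In 30 groups of 4 pools, 1 for each member and group, the lowest or highest pool was set against the others by Dixon's ratio, and 2 pools passed its 95% critical value. Chance alone flags about 1 in 20 such groups. Igfbp2 in cHet uterus replicate 3 stood at 7.57 (log2 intensity), below the other uterine pools, of which the nearest was at 7.99 (ratio 0.971). Igfbp4 in cHet vagina replicate 1 stood at 10.41, below a nearest value of 11.09 (ratio 0.857).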

How the results depend on the processing

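Over 28 alternatives the number of members called was 0 throughout between the vaginas, 5 to 7 for cHet vagina against cHet uterus and 4 to 6 for cKO vagina against cHet uterus. With a replicate block these counts were 0, 6 and 6 and no member call changed, while all genes called went from 43 to 77 between the vaginas. The calls of Igf1, Igf2, Igfbp5 and Igfbp6 against the uterus kept their side of the threshold in all 28. Without quantile normalization, which moved the median of all genes to 0.11 between the vaginas and to 0.17 for cKO vagina against uterus, Igf2r was lost in both contrasts with the uterus, Igfbp2 was lost for cKO vagina (-0.62) and Igfbp3 was gained there (0.51). Calls over all genes then split into 1129 higher and 705 lower for cHet vagina against uterus (1054 and 1022 otherwise), 1696 and 590 for cKO vagina against uterus (994 and 1053), and 11 and 20 between the vaginas (6 and 37). With array weights Igfbp3 was called for cHet vagina against uterus, at 0.55 (adjusted p = 0.0119). The 43 genes called between the vaginas became 26 with an offset of 1, 25 when above background on all 12 arrays, 69 over every kept probe, 94 with the sets as a block, 69 and 13 in replicates 1 and 2 and replicates 3 and 4 alone, and 21, 23 and 23 when cHet vagina replicate 1, cHet vagina replicate 2 or cKO vagina replicate 1, respectively, was left out; 1333 and 1303 genes were called against the uterus in replicates 1 and 2 alone. Signs turned only for differences that were not called. Between the vaginas these were Igf2r (0.068), Igfbp3 (0.035) and Igfbp6 (0.059) without quantile normalization, Igfbp3 (0.093) as the mean of its probes, Igf1 with array weights (-0.11) and in replicates 3 and 4 (-0.48), and Igf2 (-0.20), Igfbp3 (0.037) and Igfbp6 (0.016) in replicates 1 and 2. For cHet vagina against uterus it was Igfbp4 in replicates 3 and 4 (0.045). For cKO vagina against uterus they were Igf1r (0.089) and Igfbp4 (0.058) without quantile normalization, and Igfbp4 with cyclic loess (0.031), as the mean of its probes (0.010), with array weights (0.068) and in replicates 3 and 4 (0.28). When 1 pool was left out at a time, the differences between the vaginas ran from -0.23 to 0.25 for Igf1, -0.14 to 0.23 for Igf2, -0.021 to 0.29 for Igfbp4, -0.17 to 0.029 for Igfbp6 and -0.044 to 0.12 for Igfbp7. In the same way Igfbp4 ran from -0.25 to 0.012 for cHet vagina against uterus and from -0.18 to 0.12 for cKO vagina against uterus, and Igf1r from -0.20 to 0.041 in the latter. The cause of these shifts was not tested. A signal near background, as that of Igfbp6 in the vagina, limits how well the size of a fold is known.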
